A study of Mus musculus with 25 samples.

Results

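The transcripts described here are those of the Egf receptor ligands and the ErbB receptors: 10 genes of the 24984 in the count table, 7 of them ligands (Areg, Ereg, Hbegf, Tgfa, Btc, Egf and Epgn) and 3 of them receptors (Egfr, Erbb2 and Erbb3). They were taken by symbol from a list of names, and all 10 were found in the table. The libraries came from BMEL cells, bipotential precursors of hepatocytes and bile duct cells that were derived as a clone from embryonic mouse liver, and from tumours that transformed BMEL cells formed. The 3 cultured populations were sequenced with 3 libraries each: BMEL WT carrying the empty vector, and RasLOW and RasHIGH, which carry a bicistronic vector with human H-Ras G12V and a fluorescent protein (Venus or mCherry) and were sorted by their fluorescence. The sorted populations overlap in oncogene level, so each is a mixed population and not a clone. All cultured cells grew on collagen in medium with serum, insulin, IGFII and EGF at 50 ng/mL, so a ligand of Egfr was always present. Another 16 libraries came from 4 athymic nude mice, hosts that lack most T cells. Tumour cells, which the study sorted as Venus positive, came from the liver tumour and from the peritoneal tumour of each mouse. Stromal cells of the same tumours are the host cells left after that sort. The labels do not say whether RasLOW or RasHIGH cells were injected into these mice. The study made both populations with either fluorescent protein, and it measured Ras levels by site in tumours of RasLOW cells with mCherry or RasHIGH cells with Venus.

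The ErbB receptors are receptor tyrosine kinases that pair when a ligand binds and then signal through Ras to the Erk kinases. Egfr binds all 7 ligands, Erbb2 binds none and serves as the preferred partner of the others, and Erbb3 has little kinase activity of its own and binds neuregulins. The ligands are made as membrane proteins and are set free by ADAM proteases, after which they can act on the cell that made them or on its neighbours. Several of the ligand genes are themselves targets of Erk signalling, so a cell with active Ras can supply its own receptor, and Egfr signalling is known for driving hepatocyte growth during liver regeneration.

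Levels are given as CPM (the counts of a gene as a share of its library total, multiplied to a common library size), scaled by the trimmed mean of M-values (TMM) over all 25 libraries, and levels of different genes are compared only as CPM per kilobase of annotated exon. Totals ran from 20818989 to 51241336 counts per library, so 3 counts corresponded to 0.0585 to 0.144 CPM, and libraries of one group correlated at 0.984 to 0.998 on the log2 scale. Differences were called at an adjusted p under 0.05 in edgeR's quasi-likelihood test, with the Benjamini-Hochberg adjustment over all genes tested. Krt8, Krt18, Krt19, Krt7 and Epcam, the epithelial markers, summed to 6569.6 to 10289 CPM in cultured and tumour cells, nearly all from Krt8, Krt18 and Krt19. Epcam was at 0 in all RasLOW libraries and averaged 0.329 CPM or lower in the other cultured and tumour groups. In liver and peritoneal stromal cells it averaged 5.61 and 4.37 CPM. Krt7 averaged 2.80 and 6.72 CPM in liver and peritoneal tumour cells and 8.99 and 9.39 CPM in their stromal cells, with overlap in peritoneum. The same sum was 1055 to 1361 CPM in liver stromal cells and 557 to 934 CPM in peritoneal stromal cells, so the stromal libraries also held epithelial transcripts. Peritoneal tumour cells of mouse 1 stood apart, with a fibroblast marker sum of 1448 CPM against 211 to 323 CPM in the other 3 libraries. The transgene is human and was not counted as a gene of its own, and the mouse Hras gene ran at 71.3 to 87.2 CPM in BMEL WT and 50.6 to 80.0 CPM in RasHIGH, so it gives no check of the labels.

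The ligand genes Epgn, Ereg, Areg and Btc are neighbours within 375.4 kb of mouse chromosome 5 (mm9), with Areg at chr5:91568641-91577458 on the plus strand and Btc at chr5:91786287-91831939 on the minus strand, 208.8 kb apart. Egfr lies at chr11:16652206-16818161 and Erbb2 at chr11:98273784-98299030, both on the plus strand, and the other members lie singly elsewhere. The exons of Erbb2 overlap those of 1810046J19Rik on the opposite strand, and since the strand setting of the counting was not given in the sources used here, reads of that overlap cannot be assigned. The 250 bases before the start of 3 of the genes are shown because Areg and Btc rose and Egfr fell with Ras in culture in the comparisons that follow. They are from RefSeq on build GRCm38.p6, at chr5:91139349-91139598 on the plus strand for Areg, at chr5:91402995-91403244 on the minus strand for Btc and at chr11:16751953-16752202 on the plus strand for Egfr. Capitals mark matches, on either strand, to an AP-1 site (TGANTCA), a cAMP response element (TGACGTCA), an Ets site (GGAAGT), a GC box (GGGCGG) and a TATA box (TATAAA).
Areg: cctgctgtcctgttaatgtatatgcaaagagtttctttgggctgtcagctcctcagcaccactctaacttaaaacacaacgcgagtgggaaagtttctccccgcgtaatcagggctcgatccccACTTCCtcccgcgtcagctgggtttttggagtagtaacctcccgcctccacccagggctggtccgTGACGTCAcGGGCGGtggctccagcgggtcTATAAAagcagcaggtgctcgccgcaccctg
Btc: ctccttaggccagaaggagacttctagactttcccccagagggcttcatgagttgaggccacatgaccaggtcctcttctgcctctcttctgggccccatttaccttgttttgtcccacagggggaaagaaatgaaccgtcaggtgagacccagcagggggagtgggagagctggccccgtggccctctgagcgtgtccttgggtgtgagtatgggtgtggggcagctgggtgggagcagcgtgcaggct
Egfr: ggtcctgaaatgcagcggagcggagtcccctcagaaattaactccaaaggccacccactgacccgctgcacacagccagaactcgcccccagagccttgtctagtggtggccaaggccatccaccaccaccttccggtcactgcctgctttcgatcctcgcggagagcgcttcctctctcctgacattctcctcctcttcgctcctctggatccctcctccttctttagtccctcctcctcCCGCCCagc
The Areg window held a cAMP response element beginning 61 bases before the start, a GC box at 52, a TATA box at 31 and an Ets match at 126 bases before it. Of the 32851 windows of this length in the RefSeq table, 1.55% held the cAMP response element, 32.74% the GC box, 12.37% the TATA box, 19.74% the Ets match and 6.75% the AP-1 site. The Egfr window held a GC box only, 9 bases before the start, and the Btc window held none of the 5. Windows of members without a call in culture held some of these motifs too: an Ets match in Erbb2 and Egf, GC boxes in Tgfa and a TATA box in Epgn. No window was available for Ereg, nor for Hbegf and Erbb3, which were called. These are matches of letters and not measured binding, and their part in the differences was not tested.

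Amphiregulin (Areg), a low-affinity ligand of Egfr, was the most abundant ligand transcript per kilobase in 6 of the 7 groups and rose with Ras in culture. The 3 BMEL WT libraries held 144, 140.1 and 137 CPM of Areg, the RasLOW libraries 503, 346 and 249 CPM, and the RasHIGH libraries 591, 359 and 433 CPM. The lowest Ras library thus lay above the highest BMEL WT library, while RasLOW and RasHIGH overlapped. Areg was 2.54-fold higher in RasLOW (log2 1.34, SE 0.24, adjusted p = 0.0236) and 3.19-fold higher in RasHIGH (log2 1.67, SE 0.19, adjusted p = 0.00145) than in BMEL WT by edgeR, with the same BMEL WT libraries in both comparisons. The RasLOW call rested on all 3 controls, since leaving out BMEL WT 1, 2 or 3 gave adjusted p values of 0.0916, 0.0962 and 0.0905 at nearly the same fold.

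Betacellulin (Btc), which binds both Egfr and Erbb4, had the largest rise of any ligand in RasHIGH against BMEL WT. It was at 40.5, 24.9 and 28.3 CPM in BMEL WT, at 118, 61.3 and 55.2 CPM in RasLOW, and at 204, 153 and 126 CPM in RasHIGH. The 3 groups did not overlap and stood in the order of the sorted Ras level. Btc was 5.00-fold higher in RasHIGH than in BMEL WT (log2 2.32, SE 0.25, adjusted p = 0.00131). In RasLOW the log2 difference of 1.28 (SE 0.32) missed the threshold (adjusted p = 0.0620 in edgeR, 0.00233 in DESeq2), and RasHIGH against RasLOW gave a log2 difference of 1.05 (SE 0.32, adjusted p = 0.297).

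Heparin-binding Egf (Hbegf), a ligand of Egfr and Erbb4 that is also the diphtheria toxin receptor in other species, moved the opposite way. Its level was 248, 269 and 229 CPM in BMEL WT, 188, 168 and 159 CPM in RasLOW and 122, 94.9 and 144 CPM in RasHIGH, again without overlap between the 3 groups. Hbegf was 2.12-fold lower in RasHIGH than in BMEL WT (log2 -1.09, SE 0.17, adjusted p = 0.00563). The RasLOW difference was smaller (log2 -0.57, SE 0.13) and sat at the threshold (adjusted p = 0.0495), and it missed it without BMEL WT 1, 2 or 3 or without RasLOW 1 or 3 (adjusted p 0.0766 to 0.223).

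The other ligands gave no called difference between the cultured populations. Tgfa, the ligand closest to Egf in its action on Egfr, was at 108 to 134 CPM in BMEL WT and 144 to 180 CPM in RasHIGH (log2 0.35, SE 0.14, adjusted p = 0.126), without overlap but without a call. Ereg, a broad ligand of the family, was at 22.0 to 47.3 CPM in BMEL WT, and its RasHIGH difference was 0.10 (SE 0.30) on the log2 scale. Egf itself stayed at 0.172 to 1.21 CPM in all 9 cultured libraries, or 4 to 37 counts. Its RasHIGH libraries (0.172 to 0.455 CPM) lay below its BMEL WT libraries (0.620 to 1.15 CPM) without overlap, and the log2 difference of -1.40 (SE 0.48) was not called (adjusted p = 0.0780). Epgn had 0 to 8 counts per cultured library, close to the 3 counts taken as the floor, and did not pass the filter on low counts in any comparison.

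**Figure D1:**
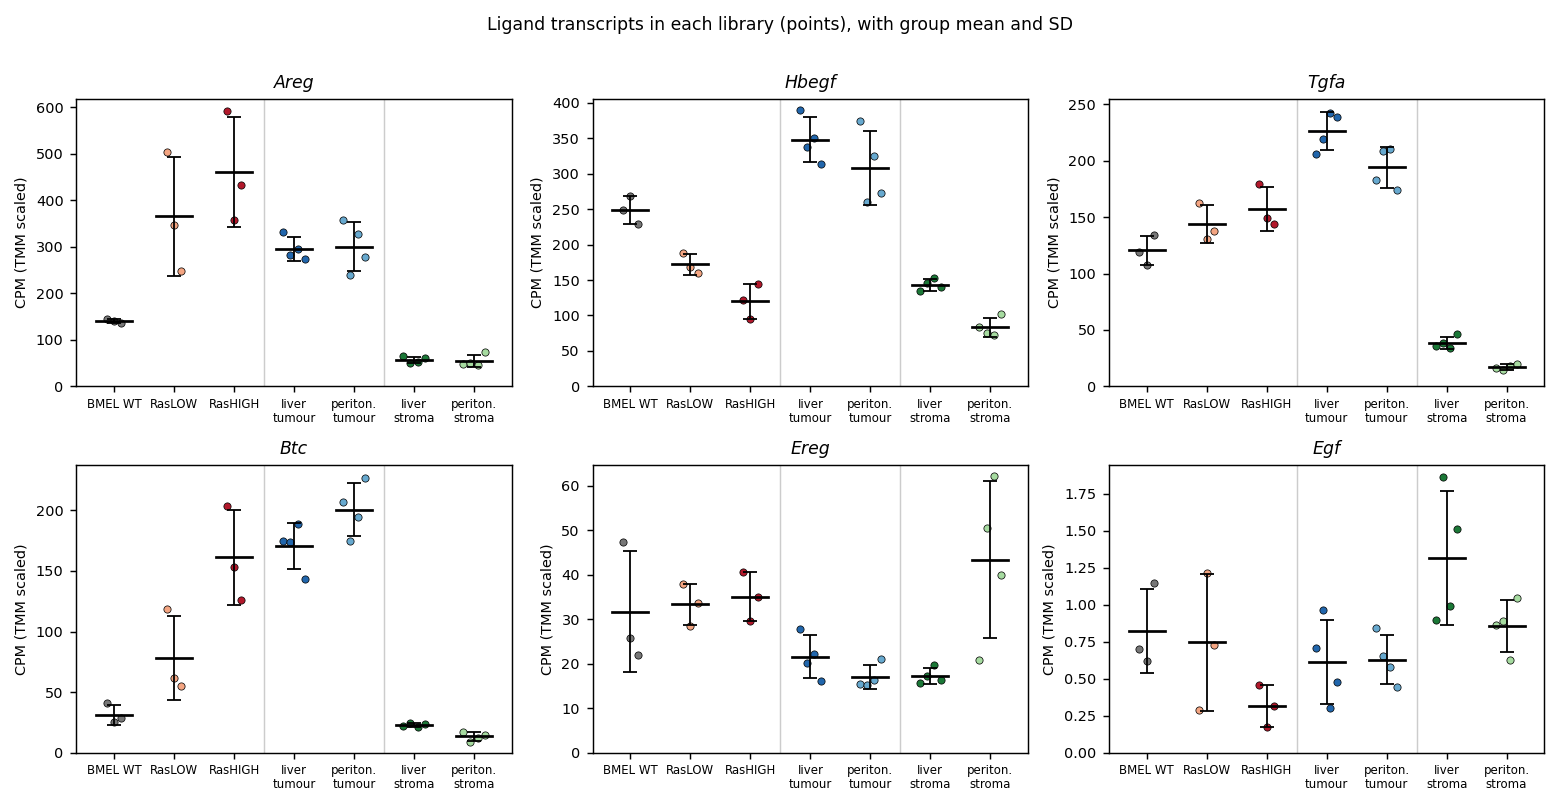
CPM (TMM scaled, linear axis from 0) of 6 ligands in each library of the 7 groups, with each point a library, the long bar the group mean and the whiskers the SD (n = 3 in culture, n = 4 for sorted cells). Areg and Btc are higher in the Ras populations than in BMEL WT, Hbegf is lowest in culture in RasHIGH (120.2 CPM on average) and highest in liver tumour cells (348 CPM), and Egf is at 1.86 CPM or lower throughout.

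Egfr, the receptor for all of these ligands, was the member that fell most. BMEL WT held 297, 337 and 246 CPM, RasLOW 59.2, 86.4 and 79.1 CPM, and RasHIGH 28.9, 28.2 and 66.0 CPM. Every Ras library was far below every BMEL WT library, and RasHIGH 3 lay within the RasLOW range. Egfr was 4.00-fold lower in RasLOW (log2 -1.999, SE 0.21, adjusted p = 0.00509) and 7.32-fold lower in RasHIGH (log2 -2.87, SE 0.37, adjusted p = 0.00253) than in BMEL WT.

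Erbb3, the receptor that binds neuregulins and feeds the Pi3k pathway, rose. It was at 8.06, 2.79 and 5.07 CPM in BMEL WT, at 8.77, 22.2 and 9.77 CPM in RasLOW and at 28.0, 26.4 and 23.9 CPM in RasHIGH. RasHIGH was 4.77-fold above BMEL WT (log2 2.25, SE 0.37, adjusted p = 0.00613). The RasLOW difference of 1.33 (SE 0.50) did not pass in edgeR (adjusted p = 0.180) but did in DESeq2 (adjusted p = 0.0451). Erbb2, the receptor without a ligand, was nearly level, with means of 89.4 ± 8.07, 89.2 ± 9.38 and 86.3 ± 21.1 CPM (SD, n = 3) in BMEL WT, RasLOW and RasHIGH. Its log2 difference was -0.04 (SE 0.14) for RasLOW and -0.09 (SE 0.19) for RasHIGH.

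In RasHIGH against BMEL WT, 5 of the 9 members tested were thus called, 3 higher and 2 lower, where 22.6% of all 12331 genes tested were called, 10.9% higher and 11.7% lower. In RasLOW against BMEL WT 3 of 9 were called, 1 higher and 2 lower, against 5.96% of all genes (1.92% higher and 4.05% lower). No member was called between RasHIGH and RasLOW by edgeR or DESeq2, where 3 members passed an unadjusted p under 0.05 and 0.0752% of all genes were called (0.0585% higher and 0.0167% lower). Groups did not overlap for 7 of the 9 members in RasHIGH against BMEL WT (42.9% of all genes), for 5 in RasLOW against BMEL WT (28.5%) and for Btc, Erbb3 and Hbegf in RasHIGH against RasLOW (15.7%). The lanes differ between these groups: 2 of the 3 BMEL WT libraries ran in lane 3, and the third with all Ras libraries in lane 4. With lane 4 alone, which leaves 1 BMEL WT library assumed to vary like the Ras libraries, Btc and Erbb3 kept their RasHIGH calls. On those libraries the other called members kept direction and size without passing (Areg log2 1.71, adjusted p = 0.0946; Egfr log2 -2.62, adjusted p = 0.0749; Hbegf log2 -0.97, adjusted p = 0.190 in RasHIGH), and no member was called in RasLOW.

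**Figure D2:**
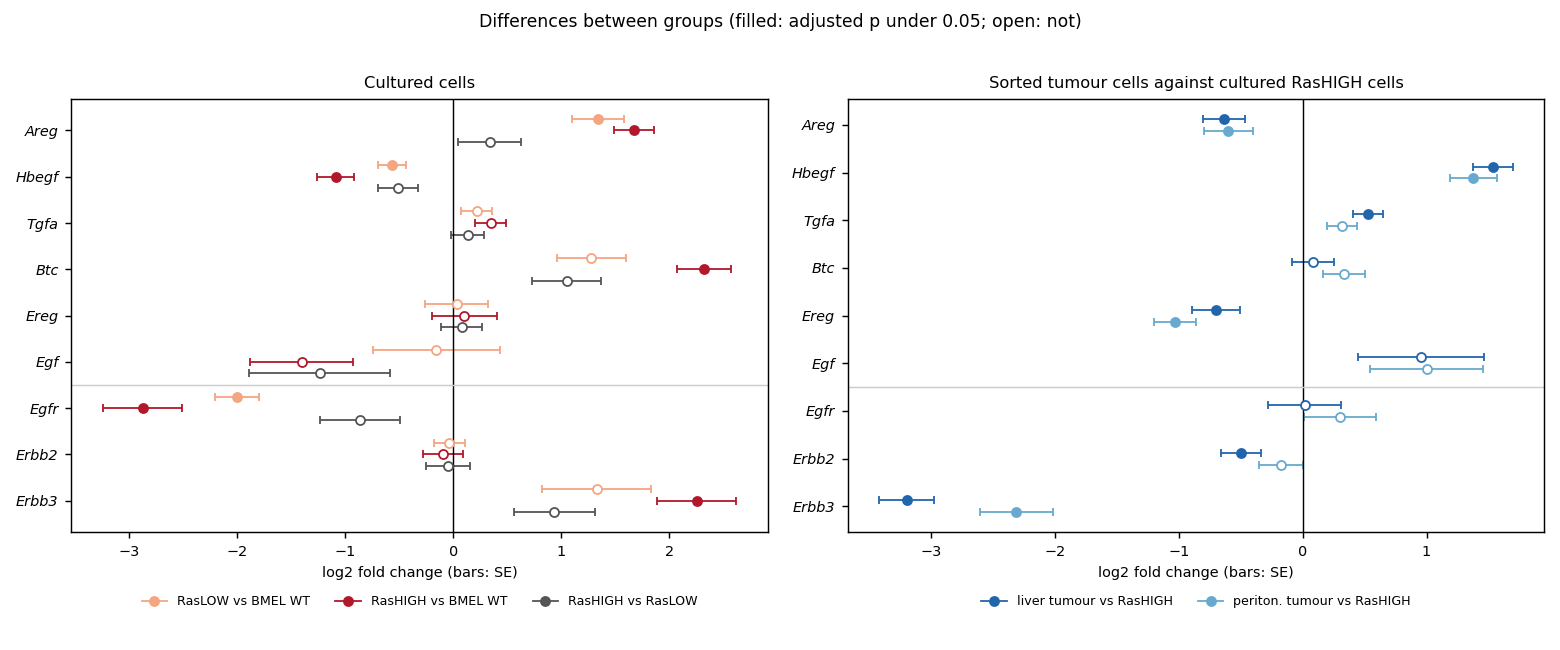
Log2 fold changes with SE for 9 members, on the left between the cultured populations and on the right for sorted tumour cells against cultured RasHIGH cells. Filled points passed an adjusted p under 0.05. Areg, Btc and Erbb3 are to the right of 0 and Hbegf and Egfr to the left in RasHIGH against BMEL WT, while in tumour cells Hbegf is to the right (log2 1.54 in liver) and Erbb3 far to the left (log2 -3.20).

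The make-up of both sides of the pathway changed with these levels. Per kilobase, the 7 ligands summed to 273 ± 10.6 CPM/kb in BMEL WT, 452 ± 130 in RasLOW and 543 ± 120 in RasHIGH (SD, n = 3), and the 3 receptors to 44.0 ± 2.35, 26.0 ± 3.68 and 24.5 ± 2.86 CPM/kb. Areg made up 42.9% of the ligand sum in BMEL WT, 66.6% in RasLOW and 70.4% in RasHIGH, and Hbegf 38.4%, 16.6% and 9.49%. Egfr made up 58.7% of the receptor sum in BMEL WT, 25.4% in RasLOW and 15.3% in RasHIGH, and Erbb2 was the leading receptor transcript in both Ras populations (66.2% and 66.9%). Sums and shares are described without a test.

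**Figure D3:**
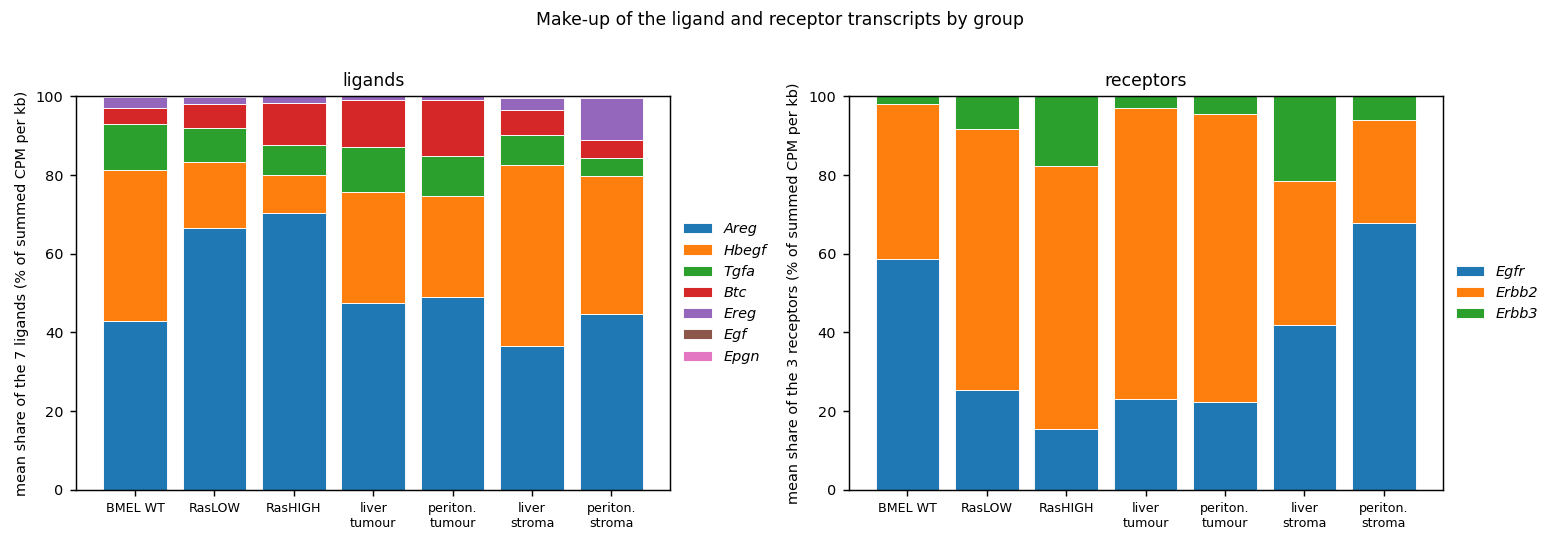
Mean share of each gene in the summed CPM per kilobase of the 7 ligands (left) and of the 3 receptors (right), as a percentage, for the 7 groups. Areg takes the largest part of the ligands in all groups except liver stromal cells, and Egfr has the largest receptor share in BMEL WT (58.7%), peritoneal stromal cells (67.8%) and liver stromal cells (41.9%, with Erbb2 at 36.5%) but not in Ras cells or tumour cells.

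Sorted tumour cells were set against cultured RasHIGH cells to ask how the same genes stood after growth in the mouse. Culture, tissue dissociation, sorting and lane all differ between these groups and cannot be told apart, both comparisons share the RasHIGH libraries, and in bulk samples fewer cells of a kind and less RNA per cell cannot be told apart. In liver tumour cells 6 of 9 members were called, 2 higher and 4 lower, against 45.1% of all genes (23.0% higher and 22.1% lower). In peritoneal tumour cells 4 of 9 were called, 1 higher and 3 lower, against 37.9% of all genes (19.3% higher and 18.6% lower). Groups did not overlap for 5 members in liver (48.8% of all genes) and for 4 in peritoneum (44.9%). Under DESeq2 the median of all genes stood at 0.11 and 0.12 on the log2 scale in these comparisons, against -0.01 in both by edgeR, and no member changed direction. Transcripts of other cells were higher in the sorted tumour libraries. The 6 fibroblast markers summed to 1.03 to 1.36 CPM in RasHIGH (none above 1 CPM, with Col1a2 and Col3a1 at 0), 40.6 to 61.8 CPM in liver tumour cells (5 above 1 CPM) and 211 to 1448 CPM in peritoneal tumour cells (6 above 1 CPM). The 6 leukocyte markers summed to 0.379 to 1.08 CPM (none above 1 CPM, with Cd52, Tyrobp and Lyz2 at 0), 11.8 to 21.8 CPM and 10.9 to 160.4 CPM (5 above 1 CPM in each). Their part in the differences that follow was not tested.

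Hbegf was at 314 to 390 CPM in liver tumour cells and 260 to 375 CPM in peritoneal tumour cells, all above the RasHIGH range of 94.9 to 144 CPM. It was 2.90-fold higher in liver (log2 1.54, SE 0.16, adjusted p = 0.000145) and 2.60-fold higher in peritoneum (log2 1.38, SE 0.19, adjusted p = 0.00150).

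Erbb3 was the member with the largest difference. It fell from 23.9 to 28.0 CPM in RasHIGH to 2.35 to 4.09 CPM in liver tumour cells (9.18-fold, log2 -3.20, SE 0.22, adjusted p = 2.14e-05) and 3.03 to 7.87 CPM in peritoneal tumour cells (4.97-fold, log2 -2.31, SE 0.30, adjusted p = 0.00109). The tumour cell ranges thus overlapped the BMEL WT range of Erbb3. Ereg was also lower, at 16.2 to 27.7 CPM in liver and 15.1 to 21.1 CPM in peritoneal tumour cells against 29.6 to 40.7 CPM in RasHIGH (log2 -0.70 and -1.03, SE 0.19 and 0.17, adjusted p = 0.0180 and 0.00281). The liver call for Ereg missed the threshold without mouse 2 (adjusted p = 0.0563).

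Areg was lower in both kinds of tumour cells, and its groups did not overlap with RasHIGH. The log2 difference was -0.64 (SE 0.17, adjusted p = 0.0142) in liver and -0.60 (SE 0.20, adjusted p = 0.0459) in peritoneum. The peritoneal call did not hold without RasHIGH 1 or 3 or without mouse 2, 3 or 4 (adjusted p 0.0801 to 0.122). Areg in tumour cells, at 239 to 357 CPM over both sites, was still above all BMEL WT libraries, and all tumour cell libraries were below the RasHIGH minimum of 359 CPM.

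Tgfa was higher in liver tumour cells (206 to 242 CPM, log2 0.53, SE 0.12, adjusted p = 0.00672). In peritoneal tumour cells its log2 difference was 0.32 (SE 0.12, adjusted p = 0.0684 in edgeR, 0.0485 in DESeq2). Erbb2 was lower in liver tumour cells (55.5 to 65.5 CPM, log2 -0.50, SE 0.16, adjusted p = 0.0340), but the groups overlapped. That Erbb2 call was lost without any of 6 of the 7 libraries, RasHIGH 3 being the exception (adjusted p 0.0524 to 0.0972). Btc and Egfr stayed near their RasHIGH levels, with log2 differences of 0.08 (SE 0.17) and 0.02 (SE 0.29) in liver and 0.33 (SE 0.17) and 0.30 (SE 0.29) in peritoneum. Without RasHIGH 3, which held 66.0 CPM of Egfr against 28.2 and 28.9 CPM in the other 2 libraries, Egfr was called higher in liver (log2 0.54, adjusted p = 0.0330) and in peritoneum (log2 0.82, adjusted p = 0.00589). Without RasHIGH 1, Btc (log2 0.53, adjusted p = 0.0123) and Tgfa (log2 0.42, adjusted p = 0.0130) were called higher in peritoneum, and Tgfa also without mouse 4 (log2 0.40, adjusted p = 0.0479).

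**Figure D4:**
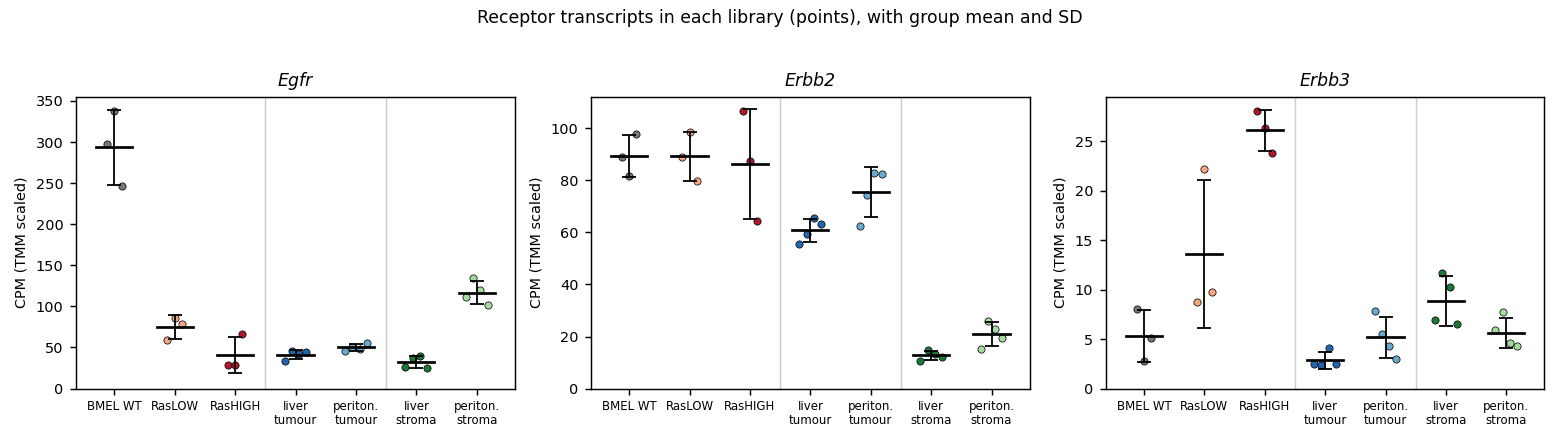
CPM (TMM scaled, linear axis from 0) of the 3 receptors in each library of the 7 groups, with each point a library, the long bar the group mean and the whiskers the SD. Egfr is highest in BMEL WT (246 to 337 CPM) and next in peritoneal stromal cells (101 to 134 CPM), Erbb2 is low in both stromal groups, and Erbb3 is highest in RasHIGH (23.9 to 28.0 CPM).

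Liver and peritoneal tumour cells were compared to ask whether the site of growth went with a different ligand or receptor level. No member was called by edgeR, where 3.20% of all genes were (1.33% higher and 1.87% lower), 5 members passed an unadjusted p under 0.05, and DESeq2 called Erbb2 alone (adjusted p = 0.0419). Mean levels in liver and peritoneum were 296 ± 25.9 and 300.2 ± 52.3 CPM for Areg, 348 ± 31.6 and 308 ± 52.6 CPM for Hbegf, 227 ± 17.0 and 194 ± 18.2 CPM for Tgfa, and 171 ± 19.3 and 201 ± 21.9 CPM for Btc (SD, n = 4). Egfr was the one member whose groups did not overlap (12.1% of all genes), at 33.8 to 45.9 CPM in liver and 46.0 to 55.3 CPM in peritoneum (log2 -0.28, SE 0.11, adjusted p = 0.174). Erbb2 was 0.32 lower in liver on the log2 scale (SE 0.10, adjusted p = 0.107) and was called without peritoneal mouse 1 (adjusted p = 0.0241), the library with the raised fibroblast sum. Erbb3 had the largest site difference of any member, 1.84-fold lower in liver (log2 -0.88, SE 0.31, adjusted p = 0.150 in edgeR and 0.0550 in DESeq2), and its ranges of 2.35 to 4.09 and 3.03 to 7.87 CPM overlapped.

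The stromal cells of the 2 sites differed more. Of 9 members 6 were called, 3 higher and 3 lower in liver, against 33.4% of all genes (14.9% higher and 18.5% lower), and the same 6 had groups that did not overlap (34.9% of all genes). Egfr was at 26.7, 36.7, 39.7 and 25.3 CPM in liver stromal cells and at 111, 134, 120.4 and 101 CPM in peritoneal stromal cells of mice 1 to 4, 3.76-fold lower in liver (log2 -1.91, SE 0.16, adjusted p = 2.33e-05). Ereg was also lower in liver, at 15.6 to 19.7 CPM against 20.9 to 62.3 CPM (2.60-fold, log2 -1.38, SE 0.27, adjusted p = 0.00402), and Erbb2 was 1.70-fold lower (log2 -0.77, SE 0.17, adjusted p = 0.00799). Peritoneal stromal cells were higher in every library for these 3 genes.

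The ligands Tgfa, Hbegf and Btc were higher in liver stromal cells. Tgfa was at 33.6 to 46.1 CPM in liver and 14.5 to 20.2 CPM in peritoneum (2.15-fold, log2 1.11, SE 0.13, adjusted p = 0.000192). Hbegf was at 134 to 153 CPM against 72.4 to 102 CPM (log2 0.73, SE 0.11, adjusted p = 0.000888), and Btc at 21.1 to 24.4 CPM against 9.09 to 17.4 CPM (log2 0.74, SE 0.18, adjusted p = 0.0109). Areg did not separate the sites (log2 0.04, SE 0.15). Erbb3 was 0.62 higher in liver on the log2 scale (SE 0.25, adjusted p = 0.0894), and with the mouse as a block it was called (adjusted p = 0.0356), as it was without peritoneal mouse 2 (adjusted p = 0.0425).

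Cell makeup moved with these differences. The epithelial marker sum given above was on average 1.63-fold higher in liver than in peritoneal stromal cells (1208 against 740.3 CPM), the direction of Tgfa, Hbegf and Btc. Erbb2 went the other way (log2 -0.77) and Areg was nearly level (log2 0.04), though both were also higher in tumour than in stromal cells of both sites. The fibroblast markers (6 of 6 above 1 CPM in both sites) summed to 4076 to 8200 CPM in liver stromal cells and 52273 to 80436 CPM in peritoneal stromal cells. Leukocyte markers (6 of 6) summed to 4785 to 5813 and 3586 to 4706 CPM, Kupffer cell markers (5 of 5 above 1 CPM in liver, 4 of 5 in peritoneum with Clec4f at 0) to 212 to 567 and 5.58 to 35.2 CPM, and neutrophil markers (4 of 4) to 1122 to 1733 and 475 to 2905 CPM. Hepatocyte markers (5 of 5 in liver, 1 of 5 in peritoneum with Apoc3 at 0) summed to 29.1 to 127 CPM in liver and 4.65 to 13.7 CPM in peritoneum. Endothelial markers (5 of 5 and 4 of 5) summed to 497 to 1034 and 326 to 487 CPM, and mesothelial markers (4 of 4) to 73.0 to 152 and 102 to 132 CPM. Mast cell and basophil markers (4 of 4) summed to 17.5 to 29.4 CPM in liver and 114 to 446 CPM in peritoneum, and those of group 2 innate lymphoid cells (2 of 4) to 17.3 to 23.9 and 48.2 to 99.8 CPM. Tumour cells held more of the mesothelial sum, 221 to 269 CPM in liver and 342 to 475 CPM in peritoneum (1 of 4 above 1 CPM in each). Their innate lymphoid sums were 33.1 to 61.4 and 43.7 to 74.3 CPM (1 of 4 in each). Neither sum is thus particular to stromal cells. The mast cell and basophil sums of tumour cells were 18.6 to 31.3 CPM in liver (1 of 4) and 16.8 to 47.3 CPM in peritoneum (2 of 4). In liver that sum thus overlapped the one of stromal cells, and in peritoneum it lay below. The part of these cells in the differences of the 6 members called was not tested.

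Against the stromal cells of the same site, tumour cells held far more of most ligands. In liver, 7 of 9 members were called, 5 higher in tumour cells and 2 lower, against 77.8% of all genes (38.4% higher and 39.4% lower). In peritoneum also 7 of 9 were called, 5 higher and 2 lower, against 76.6% of all genes (39.5% higher and 37.1% lower), so the share of members called was close to that of all genes. Under DESeq2 the median of all genes stood at -0.24 on the log2 scale in both sites, against 0.00 in liver and 0.07 in peritoneum by edgeR, and no called member changed direction. Btc differed most, at 144 to 189 CPM in tumour cells against 21.1 to 24.4 CPM in stromal cells of liver (7.33-fold, log2 2.87, SE 0.10, adjusted p = 2.27e-10) and at 174 to 227 CPM against 9.09 to 17.4 CPM in peritoneum (15.8-fold, log2 3.98, SE 0.21, adjusted p = 1.44e-06).

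Tgfa was 5.80-fold higher in tumour cells in liver and 11.8-fold in peritoneum (log2 2.54 and 3.56, SE 0.11 and 0.13). Areg was 5.06-fold and 5.81-fold higher (log2 2.34 and 2.54, SE 0.11 and 0.19), Erbb2 4.71-fold and 3.79-fold (log2 2.24 and 1.92, SE 0.11 and 0.17), and Hbegf 2.38-fold and 3.87-fold (log2 1.25 and 1.95, SE 0.09 and 0.16). All 8 of these adjusted p values were 1.60e-05 or lower in edgeR, and the groups did not overlap.

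Groups did not overlap for 6 members in each site, against 73.5% of all genes in liver and 71.8% in peritoneum.

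The epithelial marker sum, nearly all from Krt8, Krt18 and Krt19, gives a scale for the stromal values. Epcam and Krt7 do not follow it, with higher means in stromal than in tumour cells of both sites. Epcam averaged 5.61 against 0.0676 CPM in liver and 4.37 against 0.0490 CPM in peritoneum. The mean sum in stromal cells was 14.3% of that in tumour cells in liver and 7.81% in peritoneum. Beside this, the stromal mean was 13.4% and 6.60% of the tumour mean for Btc, 16.9% and 8.86% for Tgfa, 19.4% and 18.01% for Areg, 20.8% and 27.7% for Erbb2, and 41.1% and 27.0% for Hbegf. How much of the stromal ligand signal came from tumour cells in the stromal gate was not tested.

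The other receptors and Ereg did not follow this pattern. Egfr was 2.23-fold lower in tumour cells than in stromal cells of the peritoneum (log2 -1.16, SE 0.10, adjusted p = 1.47e-05). In liver it was 0.34 higher on the log2 scale (SE 0.15, adjusted p = 0.0611), which passed with the mouse as a block (adjusted p = 0.0205) and without liver tumour mouse 1 or liver stroma mouse 2 or 3 (adjusted p 0.0197 to 0.0419). Erbb3 was 3.18-fold lower in tumour cells in liver (log2 -1.67, SE 0.25, adjusted p = 6.84e-05), at 2.35 to 4.09 against 6.55 to 11.7 CPM, and the difference in peritoneum was -0.05 (SE 0.32). Ereg was 2.44-fold lower in tumour cells in peritoneum (log2 -1.29, SE 0.30, adjusted p = 0.00372), where stromal mouse 1 at 20.9 CPM lay within the tumour range, and its difference in liver was 0.30 (SE 0.15, adjusted p = 0.0910), called without liver tumour mouse 4 (adjusted p = 0.0175).

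Egf was called lower in liver tumour cells (0.303 to 0.961 CPM against 0.892 to 1.86 CPM, log2 -1.11, SE 0.39, adjusted p = 0.0226) on 10 to 53 counts per library. The call was lost without liver tumour mouse 3 or 4 or liver stroma mouse 2 or 4 (adjusted p 0.0508 to 0.0722). Epgn had 0 to 13 counts in the sorted libraries. DESeq2, which tested it, called it lower in tumour cells of the peritoneum (adjusted p = 0.00668), where 3 of the 4 tumour libraries held no count and the stromal libraries 3 to 13.

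**Figure D5:**
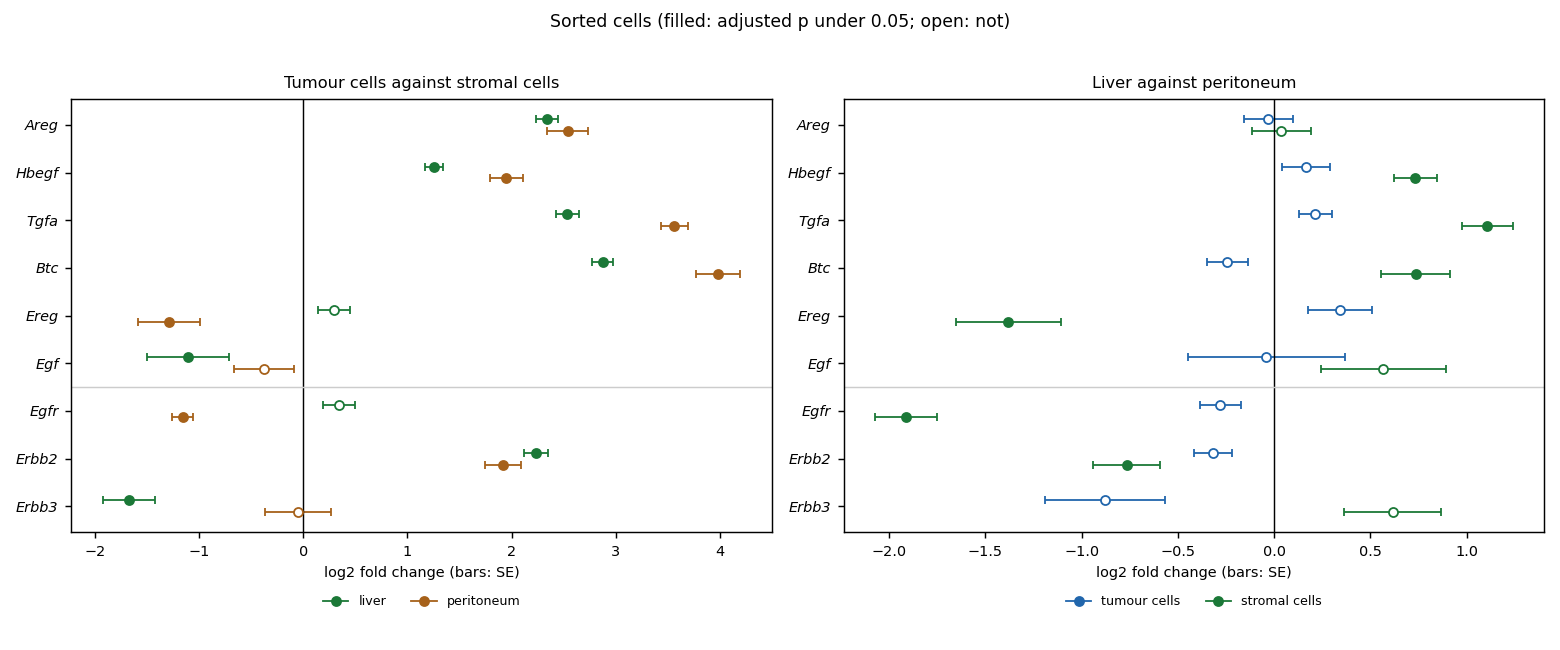
Log2 fold changes with SE for 9 members, on the left for tumour against stromal cells in each site and on the right for liver against peritoneum in tumour cells and in stromal cells. Filled points passed an adjusted p under 0.05. No tumour cell point on the right is filled, while 6 stromal points are, with Egfr (log2 -1.91) and Ereg (log2 -1.38) to the left and Tgfa (log2 1.11) to the right.

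Whether the site difference itself differed between tumour and stromal cells was tested as an interaction over all 16 libraries. Of 9 members 6 were called, 2 more positive and 4 more negative, against 14.3% of all genes (6.79% and 7.50%), and the median over all genes was -0.12 on the log2 scale. The liver minus peritoneum difference was more positive in tumour cells for Ereg (log2 1.64, SE 0.35, adjusted p = 0.00593) and Egfr (log2 1.55, SE 0.20, adjusted p = 0.000158). It was more negative for Erbb3 (log2 -1.57, SE 0.42, adjusted p = 0.0218), Btc (log2 -1.06, SE 0.22, adjusted p = 0.00440), Tgfa (log2 -0.97, SE 0.16, adjusted p = 0.00105) and Hbegf (log2 -0.65, SE 0.18, adjusted p = 0.0243). The Hbegf call was lost without liver tumour mouse 3 or 4, peritoneal tumour mouse 1 or peritoneal stroma mouse 1, 2 or 3 (adjusted p 0.0521 to 0.108). The Erbb3 call was lost without peritoneal tumour mouse 1 or peritoneal stroma mouse 3 or 4 (adjusted p 0.0546 to 0.0675).

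The study's own limits on change and p were applied here to the unadjusted p of edgeR. Between cell lines they were a log2 change over 1.5 with p under 0.01, which the study states for Ras-regulated genes. In the comparisons with sorted cells they were a log2 change over 1 with p under 0.05. The study also removed genes with all log2 RPKM values under 1, which was not done here. Its list of gradually changing genes prints adjusted p values, so counts need not match the study's. By these limits 1 member passed in RasLOW against BMEL WT (4.40% of all genes), 4 in RasHIGH against BMEL WT (9.65%), and none in RasHIGH against RasLOW (2.12%) or between tumour sites (3.52%). For RasLOW against RasHIGH the study also states the wider limits, and with these, added after the data were seen, Btc alone of the members passed (log2 1.05), as did 4.94% of all genes. The study's limits passed 3 members between stromal sites (14.3%), 7 in tumour against stromal cells of each site (44.0% in liver and 43.7% in peritoneum), and 2 and 3 in liver and peritoneal tumour cells against RasHIGH (23.5% and 20.1%).

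Ranked over the 7 groups, Areg ran from RasHIGH through RasLOW, peritoneal and liver tumour cells, BMEL WT and liver stromal cells to peritoneal stromal cells, and of these neighbours liver tumour cells and BMEL WT, and BMEL WT and liver stromal cells, did not overlap. For Btc the order was peritoneal tumour cells, liver tumour cells, RasHIGH, RasLOW, BMEL WT, liver stromal cells and peritoneal stromal cells, with overlap only among the first 3 groups. Egfr ran from BMEL WT through peritoneal stromal cells, RasLOW, peritoneal tumour cells, liver tumour cells and RasHIGH to liver stromal cells. Its neighbouring groups overlapped only from liver tumour cells onward. RasHIGH 3, at 66.0 CPM, lay above all peritoneal tumour cell libraries and within the RasLOW range. Tgfa was highest in liver tumour cells and fell to peritoneal stromal cells with overlap between all neighbours above the stromal groups, which were separate from BMEL WT and from each other. Hbegf ran from liver and peritoneal tumour cells through BMEL WT, RasLOW, liver stromal cells and RasHIGH to peritoneal stromal cells, with no overlap on either side of RasLOW. Erbb2 fell in small overlapping steps from BMEL WT to liver tumour cells, which were separate from peritoneal stromal cells, and those from liver stromal cells. All neighbouring groups overlapped for Ereg, Egf and Epgn, and for Erbb3 all but RasHIGH and RasLOW.

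Other genes of the pathway were counted by lists, and the shares of all genes called in the same comparisons are given beside the main counts. Among the other ErbB receptor and neuregulins, Erbb4 was at 0 in 4 of the 7 groups and averaged at most 0.127 CPM. Nrg1, a ligand of Erbb3 and Erbb4, was lower in both Ras populations (100.3 ± 11.7 CPM in BMEL WT, 31.3 ± 8.80 in RasLOW, 23.8 ± 13.2 in RasHIGH, SD, n = 3), with log2 differences of -1.72 (SE 0.21, adjusted p = 0.00804) and -2.11 (SE 0.38, adjusted p = 0.00937). It was 1 of 2 list genes tested in each comparison, and the other, Nrg2, was not called there, where 5.96% of all genes were called in RasLOW and 22.6% in RasHIGH. Nrg2 was lower in tumour cells than in RasHIGH (log2 -3.18 in liver and -2.60 in peritoneum). In liver all 3 neuregulins tested were lower in tumour than in stromal cells, as were 39.4% of all genes.

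The receptor brakes include Errfi1, which binds and blocks the Egfr kinase, and the Socs and Cbl proteins that send receptors for breakdown. In RasHIGH against BMEL WT 4 of 12 were higher and none lower, against 10.9% and 11.7% of all genes, with a median log2 of 0.24 against -0.02 over all genes. The 3 largest rises were Socs3 (log2 1.40), Errfi1 (log2 1.38) and Socs5 (log2 1.09). In RasLOW 2 of 12 were higher (1.92% of all genes), Lrig3 (log2 1.66) and Errfi1 (log2 1.07). Errfi1 averaged 96.7 ± 5.44 CPM in BMEL WT and 258 ± 51.3 CPM in RasHIGH. In tumour against stromal cells 6 brakes were higher and 5 lower of 13 in liver, and 5 higher and 5 lower of 12 in peritoneum. Of all genes 77.8% were called in liver (38.4% higher and 39.4% lower) and 76.6% in peritoneum (39.5% higher and 37.1% lower), so these shares, like those of the other lists in tumour against stromal cells, stand on a high background. Lrig1 (log2 1.60 in liver) was among the higher genes, and Socs3 (log2 -3.43) and Ptpn1 (log2 -3.11) among the lower.

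Of the 8 sheddases and their carriers, Adam12 alone was called in culture by edgeR, lower in RasHIGH (log2 -3.37, SE 0.68, adjusted p = 0.0133), where 11.7% of all genes were lower. Adam17, the main sheddase of Areg and Tgfa, named here for that role although it was not called in culture, was at 73.3 ± 9.29 CPM in BMEL WT and 101 ± 4.22 CPM in RasHIGH. Against RasHIGH, Adam10, which sheds Btc and Egf, was higher in liver (log2 0.77) and peritoneal (log2 0.70) tumour cells, as was Adam12 (log2 3.28 and 3.64), and 3 of 8 were higher and none lower in each, against 23.0% and 19.3% of all genes higher. Adam12 moved in the direction of the fibroblast markers in these comparisons, and their part in it was not tested. In tumour against stromal cells 3 were higher and 4 lower in both sites, where 77.8% and 76.6% of all genes were called, with Rhbdf1 (log2 1.36 in liver) among the higher and Adam8 (log2 -4.52 in liver, -4.57 in peritoneum) among the lower.

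Surface partners of the ligands and of Egfr differed between culture and tumour. All 5 (Cd9, Cd44, Sdc1, Sdc4 and Cd82) were higher in tumour cells than in RasHIGH in both sites, with a median log2 of 1.08 and 1.09 where all genes had -0.01 in both and 23.0% and 19.3% of all genes were higher. Cd82, a tetraspanin that dampens Egfr signalling, had the largest rise, from 68.6 ± 27.3 CPM in RasHIGH to 385 ± 22.0 CPM in liver tumour cells (log2 2.49, SE 0.24). All 5 were also higher in tumour than in stromal cells in both sites, as were 38.4% of all genes in liver and 39.5% in peritoneum. In culture Cd9 alone was called, higher in RasHIGH (log2 0.75), where 10.9% of all genes were higher.

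Of 13 adaptors and effectors, 3 were higher (Sos1, Eps8 and Eps15) and 1 lower in RasHIGH against BMEL WT, where 22.6% of all genes were called. The lower one was Gab1, the docking protein that links Egfr to Pi3k, at 28.8 ± 5.05 CPM in BMEL WT and 5.21 ± 1.34 CPM in RasHIGH (log2 -2.51, SE 0.25, adjusted p = 0.000977). None was called in RasLOW by edgeR (5.96% of all genes were), where 3 had an unadjusted p under 0.05 and DESeq2 called 1. In tumour against stromal cells 4 were higher and 6 lower in both sites, where 77.8% and 76.6% of all genes were called, Gab1 again lower (log2 -3.25 in liver and -3.89 in peritoneum). Against RasHIGH, 3 were higher and 3 lower in each kind of tumour cells, where 45.1% of all genes were called in liver and 37.9% in peritoneum.

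The 6 Erk output genes were chosen by the study for its own measurements of these cells, so their direction is not independent evidence. In RasHIGH against BMEL WT 2 of 6 were higher, Etv4 (log2 1.56, SE 0.16, adjusted p = 0.00119) and Etv5 (log2 1.10, SE 0.23, adjusted p = 0.0153), and in RasLOW Etv5 alone (log2 1.12). Of all genes 10.9% were higher in RasHIGH and 1.92% in RasLOW. None was called in tumour cells against RasHIGH by edgeR or DESeq2, with 2 in liver and 1 in peritoneum at an unadjusted p under 0.05. Of all genes 45.1% in liver and 37.9% in peritoneum were called there by edgeR. Between liver and peritoneal tumour cells, and between RasHIGH and RasLOW, no gene of any of the 6 lists was called by edgeR. Of 46 list genes tested in each, 11 between tumour sites and 7 between RasHIGH and RasLOW had an unadjusted p under 0.05, and DESeq2 called 3 and 1. In stromal cells of liver against peritoneum the calls, higher and lower, were 1 and 3 of 8 sheddases, 1 and 4 of 12 brakes, 4 and 0 of 13 adaptors, 2 and 0 of 5 surface proteins and 1 and 2 of 6 Erk output genes, with no neuregulin called by edgeR or DESeq2 and 0 of 3 at an unadjusted p under 0.05, and 14.9% of all genes were higher and 18.5% lower. Errfi1 (log2 -1.15), Lrig3 (log2 -1.80) and Adam12 (log2 -2.40) were lower in liver stromal cells.

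Genes of like pattern were sought for the 4 members of highest mean level, over 15756 other genes and 25 libraries on log2(CPM + 1). For Areg these were 2210016L21Rik (r = 0.972), Sh3bgrl2 (r = 0.969) and Fam199x (r = 0.968), for Btc Cldn2 (r = 0.989), Itga6 (r = 0.985) and Rap1gap (r = 0.982), for Tgfa Igf2bp2 (r = 0.991) and Parvb (r = 0.987), and for Hbegf Cd24a (r = 0.943), Myo5b (r = 0.938) and Dusp10 (r = 0.925). The 25 points fall into epithelial and stromal libraries and share that contrast, so r describes the pattern over groups only. Cldn2, a tight junction protein, averaged 156 ± 46.1 CPM in BMEL WT, 864 ± 156 CPM in RasHIGH and 1142 ± 52.3 CPM in peritoneal tumour cells, which is the order of Btc.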

How the data were processed

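RNA was sequenced from 9 cultured and 16 sorted libraries in 7 groups taken from the labels. The authors made libraries with the NuGEN Universal Plus mRNAseq kit, sequenced them on a HiSeq 2500, aligned reads to mm9 with TopHat2 and deposited raw read counts per gene for 24984 genes. The counting program, its annotation and its strand setting are not given in the sources used here. The submitters' processing notes also list FastQC, Bowtie 0.12.2 and the builds mm8 and mm10. The deposited table holds no comparison of the authors' own, and 0 columns of other samples were left out.

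Counts were analysed with edgeR 4.0.16 in R 4.3.3: filterByExpr (minimum count 10), TMM factors, a quasi-likelihood fit on the libraries of the groups compared only, and the Benjamini-Hochberg adjustment over all genes tested, called under 0.05. The site interaction used all 16 sorted libraries. CPM values carry TMM factors over all 25 libraries, and exon lengths and positions are from GENCODE annotation of mm9. The scripts were tested on simulated data with known fold changes. Alternatives were DESeq2 1.42.0, RLE factors, no filter, the study's thresholds, each library left out, replicate or mouse blocks, wider fits, lane 4 only, CPM by total counts and, added after seeing the data, a log2 change over 1 with an unadjusted p under 0.05 for RasHIGH against RasLOW. The 10 members, the 6 pathway lists and the 10 marker lists were chosen with earlier results of these data known. All members are described, at most 3 called genes of a pathway list are named per direction and comparison, by size of change, and 3 genes of like pattern are named for each of the 4 most abundant members, except that 1 gene is not reported here.

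Totals of 20818989 to 51241336 counts make 3 counts, taken as the floor, equal to 0.0585 to 0.144 CPM, which covers counting error only. Libraries of mouse 1 ran in lane 1, mouse 2 in lanes 1 (liver) and 2 (peritoneum), mouse 3 in lane 2 and mouse 4 in lane 3. Lane and site thus cannot be told apart in mouse 2, and the part of lane in the site comparisons was not tested. The labels' mouse numbers pair sorted samples by animal. Deviations of same-numbered samples from their group means correlated at 0.124 to 0.304 for tumour and stromal cells in liver, 0.0626 to 0.286 in peritoneum, -0.00753 to 0.34 for stromal cells of both sites and -0.163 to 0.0536 for tumour cells of both sites.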

Additional observations from a re-analysis of the deposited data

Results flagged for a closer look

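Within groups of 4 libraries, 40 sets of values were tested for a library far from the others by Dixon's criterion, which chance alone passes in about 1 of every 20 groups. Erbb3 in liver tumour cells of mouse 3 was at 4.09 CPM against 2.35 to 2.49 CPM in the other 3 libraries, a gap of 0.919 of the range. Epgn in peritoneal tumour cells of mouse 3 was at 0.0768 CPM, or 4 counts, while the other 3 libraries held none. With those at 0 the gap is the whole range for any value of mouse 3, so this flag carries no weight. That library also had the largest total, 51241336 counts.

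The difference between liver and peritoneum itself differed between tumour and stromal cells for 6 members by the interaction test of edgeR. On the log2 scale the tumour minus stroma difference of the site effect was 1.64 for Ereg, 1.55 for Egfr, -0.65 for Hbegf, -0.97 for Tgfa, -1.06 for Btc and -1.57 for Erbb3.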

How the results depend on the processing

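Of 44 member calls, 32 held in every refit and 12 were lost in at least one, the study's thresholds not counted. Of the 38 calls outside the interaction, 27 passed those thresholds and 11 did not. DESeq2 called 5 members in RasLOW against BMEL WT (3 by edgeR) and 1 between tumour sites (0 by edgeR). With lane 4 alone the member counts were 0 in RasLOW and 2 in RasHIGH (5 with all lanes), and all genes called were 0 and 316. The study's thresholds gave 1 member in RasLOW, 3 between stromal sites and 2 in liver tumour cells against RasHIGH. Those thresholds called 1190 genes in RasHIGH against BMEL WT, 253 in RasHIGH against RasLOW, 2107 between stromal sites, 6437 and 6377 in tumour against stromal cells of liver and peritoneum, and 3050 and 2571 in liver and peritoneal tumour cells against RasHIGH. A log2 change over 1 with an unadjusted p under 0.05, chosen for RasHIGH against RasLOW after seeing the data, gave 1 member and 591 genes there. The main counts of all genes were 734 in RasLOW, 2789 in RasHIGH, 9 in RasHIGH against RasLOW, 419 between tumour sites, 4926 between stromal sites, 11376 and 11168 in tumour against stromal cells, and 5851 and 4846 against RasHIGH. DESeq2 called 1639 genes in RasLOW, 414 in RasHIGH against RasLOW and 1260 between tumour sites. RasHIGH against RasLOW gave 77 genes with no filter and 101 in one fit, and tumour sites gave 671 in one fit. The causes were not tested.

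The labels do not say whether cell line replicates of the same number share anything else. Their deviations correlated at -0.293 to -0.0175 in RasLOW and BMEL WT, -0.148 to 0.166 in RasHIGH and BMEL WT, and -0.675 to 0.343 in RasHIGH and RasLOW. Tumour cells paired by mouse gave -0.163 to 0.0536, so such values cannot settle it. Some sample codes in the labels are consecutive between RasHIGH and RasLOW libraries of different replicate numbers. What the codes stand for is not given, so the block by number need not join libraries made together. With the replicate block 295 genes were called in RasLOW and 0 in RasHIGH against RasLOW. In RasLOW the block lost Hbegf (adjusted p = 0.148) and gained Btc (adjusted p = 0.0343) by edgeR. With the mouse as a block 102 genes were called between tumour sites, and beyond Erbb3 between stromal sites and Egfr in liver it changed no other call of a member.

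Leaving out each library gave 1 to 4 members called in RasLOW, 5 to 5 in RasHIGH, 0 to 0 in RasHIGH against RasLOW, 0 to 1 between tumour sites, 6 to 7 between stromal sites, 6 to 8 and 7 to 7 in tumour against stromal cells of liver and peritoneum, 4 to 7 and 3 to 5 in liver and peritoneal tumour cells against RasHIGH, and 4 to 6 in the interaction. All genes called ran in the same order from 148 to 2340, 1517 to 3896, 0 to 16, 41 to 884, 3976 to 4872, 11099 to 11353 and 10691 to 11070, 4510 to 8100 and 3154 to 7050, and 1563 to 2117. Direction turned only when a library was left out and only for members without a call. The log2 ranges were -0.17 to 0.44 for Ereg, -0.74 to 0.24 for Egf and -0.13 to 0.0418 for Erbb2 in RasLOW, -0.10 to 0.52 for Ereg and -0.25 to 0.10 for Erbb2 in RasHIGH, and -0.0249 to 0.18 for Ereg and -0.21 to 0.14 for Erbb2 in RasHIGH against RasLOW. They were -0.14 to 0.0709 for Areg and -0.34 to 0.17 for Egf between tumour sites, -0.0503 to 0.20 for Areg between stromal sites, -0.41 to 0.14 for Erbb3 in tumour against stromal cells of the peritoneum, -0.0672 to 0.28 for Btc and -0.20 to 0.54 for Egfr in liver tumour cells against RasHIGH, and -0.25 to 0.0398 for Areg in the interaction. Of 70 mean levels, 2 moved by more than an SD when scaled by totals. Depth limits Egf and Epgn, at 0 to 53 counts per library.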
